A study of Mus musculus with 11 samples.

Results

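Celsr3, Mpdz, Nrp2 and Rnf185 were described across 11 RNA sequencing libraries, made from CD4+ T cells of the mouse kidney on day 2 after ischemia-reperfusion injury (IRI). These 4 of 35814 gene symbols were selected on their measured values, because they were higher in the libraries labelled CD4IKK1 than in those labelled CD4cre. Their values in this comparison are therefore a description, and no test of them is given. The libraries came from male C57BL/6 mice, 8 to 12 weeks old, whose renal pedicles on both sides had been clamped for 45 min. The 3 CD4cre libraries, with the genotype WT in the labels, were the Cre controls. The 5 CD4IKK1 libraries came from IKK1 knockout mice and the 3 CD4NIK libraries from NIK knockout mice, made by crossing mice with Cre recombinase under the CD4 promoter to mice with floxed IKK1 (Chuk) or NIK (Map3k14). The CD4 promoter is active at an early stage of thymic development, so that this Cre also acts in the CD8 lineage. Every mouse had undergone IRI, and no library of a sham-operated mouse was analysed here. Cells were enriched with a CD4+ T cell kit and sorted, and their RNA was amplified with the SMARTer kit.

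The libraries held between 15751632 and 25737046 estimated counts, so that 3 counts corresponded to between 0.115 and 0.212 CPM, the unit of level used below, in which a count is scaled to the library total after TMM normalization. CD4cre, CD4IKK1 and CD4NIK below stand for the libraries with these labels, since the targeted transcripts did not separate the groups as the labels do. Chuk was at 22.0 ± 9.67 CPM (SD, n = 3) in CD4cre, 20.4 ± 4.55 CPM (SD, n = 5) in CD4IKK1 and 33.5 ± 8.81 CPM (SD, n = 3) in CD4NIK. Map3k14 was at 17.9 ± 2.78 CPM in CD4cre, 5.97 ± 2.81 CPM in CD4IKK1 and 22.5 ± 8.98 CPM in CD4NIK. A count per gene does not resolve the deleted exons. The summed level of 19 T cell markers ranged from 1743 to 3271 CPM in CD4cre, from 35.9 to 1560 CPM in CD4IKK1 and from 8908 to 12950 CPM in CD4NIK. In the CD4IKK1 library of replicate 1, Trac, the constant part of the T cell receptor alpha chain, had 1 count, under the limit of 3 counts. The label CD4+ T cell was thus poorly borne out by its defining markers in that library. Replicate 2 of CD4IKK1 had the next lowest sum, 187 CPM. In every CD4cre and CD4IKK1 library the neuronal markers described below summed to more than the T cell markers, at 14690 to 22180 CPM. In bulk RNA, fewer cells of a type and less RNA per cell cannot be told apart.

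Celsr3, Mpdz and Nrp2 encode proteins known for their work in the nervous system and in epithelia. Celsr3 is a large atypical cadherin and adhesion receptor of the planar cell polarity pathway, which aligns cells within a tissue sheet and is needed for the growth of major axon tracts. Nrp2, neuropilin 2, is a co-receptor: it pairs with plexins to bind secreted semaphorins that repel axons, and with receptors for vascular endothelial growth factors on lymphatic endothelium. Mpdz is a scaffold protein with many PDZ domains that gathers membrane proteins at tight junctions and at synapses. Rnf185 is of another kind, a RING finger ubiquitin ligase of the endoplasmic reticulum membrane that marks proteins for ER-associated degradation, together with its close relative Rnf5.

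On the mouse assembly GRCm39, the protein-coding gene Celsr3 lies on chromosome 9 from 108703519 to 108730168 on the plus strand. Mpdz lies on chromosome 4 from 81196710 to 81371541 on the minus strand. Nrp2 lies on chromosome 1 from 62742444 to 62857854 on the plus strand, and Rnf185 on chromosome 11 from 3365977 to 3402378 on the minus strand. For Celsr3, Nrp2 and Rnf185, RefSeq start sites on the assembly GRCm38.p6 gave the 250 bases upstream. They are printed as a description of sequence, and their relation to the levels was not tested. No window is shown for Mpdz. Capitals mark the GC box (GGGCGG on either strand, with overlapping matches joined) and the CCAAT box (CCAAT on either strand).

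Nrp2, chr1:62703067-62703316, plus strand: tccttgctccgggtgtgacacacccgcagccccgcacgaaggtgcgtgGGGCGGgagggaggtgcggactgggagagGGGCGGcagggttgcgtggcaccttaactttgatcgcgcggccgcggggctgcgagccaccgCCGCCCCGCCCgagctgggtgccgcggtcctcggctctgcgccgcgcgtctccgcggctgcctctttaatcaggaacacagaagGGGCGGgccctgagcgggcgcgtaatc
Celsr3, chr9:108825795-108826044, plus strand: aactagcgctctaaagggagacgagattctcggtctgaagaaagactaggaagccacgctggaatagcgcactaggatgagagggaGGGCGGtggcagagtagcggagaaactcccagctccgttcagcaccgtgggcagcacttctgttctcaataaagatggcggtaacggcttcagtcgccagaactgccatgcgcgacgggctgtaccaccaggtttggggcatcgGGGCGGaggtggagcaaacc
Rnf185, chr11:3452957-3453206, minus strand: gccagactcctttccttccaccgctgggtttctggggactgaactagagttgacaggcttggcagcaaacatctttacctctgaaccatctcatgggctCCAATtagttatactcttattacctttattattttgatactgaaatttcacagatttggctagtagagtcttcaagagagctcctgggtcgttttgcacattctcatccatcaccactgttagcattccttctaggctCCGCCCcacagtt

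The Nrp2 window was 72.4% G and C, with 32 CpG dinucleotides and 5 GC boxes. The Celsr3 window was 58.0% G and C, with 17 CpG and 2 GC boxes. The Rnf185 window was 45.2% G and C, with 3 CpG, 1 GC box and 1 CCAAT box. Across the 32851 windows of this length, the median was 52.4% G and C with 6 CpG, and 32.7% held a GC box and 33.8% a CCAAT box. None of the 3 windows held TATAAA, TGACGTCA or CACGTG, which were present in 12.4%, 1.55% and 6.02% of all windows. These matches describe letters only.

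Within CD4IKK1, Celsr3 had the largest ratio of the highest to the lowest level, 15.2, among the 3 members seen in every library. Its level was 0.654, 0.729 and 0.751 CPM in CD4cre, from 17, 15 and 15 counts. In CD4IKK1 it was 6.98, 15.3, 1.25, 18.9 and 16.7 CPM in replicates 1 to 5, from 109, 292, 22, 381 and 372 counts. In CD4NIK it was 1.00, 0.246 and 4.58 CPM, from 18, 5 and 65 counts. Every CD4IKK1 library was above every CD4cre library, but replicate 3 only narrowly, at 1.66 times the highest CD4cre library. The CD4NIK libraries lay on both sides of CD4cre, and the highest of them was above the lowest CD4IKK1 library. The means were 0.711 ± 0.0506 CPM in CD4cre (SD, n = 3), 11.8 ± 7.44 CPM in CD4IKK1 (SD, n = 5) and 1.94 ± 2.32 CPM in CD4NIK (SD, n = 3), a ratio of 16.6 between the means of CD4IKK1 and CD4cre.

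Nrp2 varied least within CD4IKK1 and within CD4NIK, with coefficients of variation of 18.3% and 9.17%. It was at 18.7, 34.5 and 27.7 CPM in CD4cre, from 485, 710 and 553 counts. In CD4IKK1 it was at 51.7, 49.6, 68.0, 66.9 and 45.8 CPM, from 807 to 1347 counts, and in CD4NIK at 14.8, 17.7 and 15.8 CPM, from 224 to 361 counts. The 3 groups did not overlap: every CD4IKK1 library was above, and every CD4NIK library below, all CD4cre libraries. The means were 27.0 ± 7.95 CPM in CD4cre, 56.4 ± 10.3 CPM in CD4IKK1 and 16.1 ± 1.48 CPM in CD4NIK, so that CD4IKK1 was 2.09 times CD4cre and 3.50 times CD4NIK.

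Mpdz lay between these patterns. It was at 11.8, 23.2 and 18.0 CPM in CD4cre, from 307, 477 and 359 counts. In CD4IKK1 it was at 29.3, 57.4, 58.6, 57.8 and 40.0 CPM, from 458 to 1165 counts, and in CD4NIK at 28.4, 14.7 and 7.40 CPM, from 509, 300 and 105 counts. The CD4IKK1 libraries were above all others, although replicate 1 exceeded the highest CD4NIK library by a ratio of only 1.03. CD4NIK and CD4cre overlapped, with means of 16.8 ± 10.7 CPM and 17.7 ± 5.69 CPM against 48.6 ± 13.3 CPM in CD4IKK1, a ratio of 2.75 between CD4IKK1 and CD4cre.

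Rnf185 did not follow its label in most CD4IKK1 libraries. It had 0 counts in all 3 CD4cre libraries and also in CD4IKK1 replicates 1, 2 and 3. In CD4IKK1 replicates 4 and 5 it had 264 and 224 counts, which gave 13.1 and 10.1 CPM. In CD4NIK it had 22, 20 and 0 counts, which gave 1.23, 0.983 and 0 CPM. Against the limit of 3 counts in a CD4cre library, replicates 4 and 5 were at least 87.3-fold and at least 67.1-fold higher, for counting error only. Its mean in CD4IKK1, 4.63 ± 6.44 CPM, therefore described no single library. Among all symbols, Rnf185 was the 1 gene with 0 counts in 3 or more CD4IKK1 libraries and at least 200 in 2 or more, a criterion set after its values were seen. A further 6 genes were, like Rnf185, at 0 in every CD4cre library and at 200 counts or more in another library (Cdca5, Gm10184, Gm10259, Hs6st2, Nbn and Sms-ps). Values of 0 in 1 library and at least 200 counts in another were found for 599 genes.

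**Figure D1:**
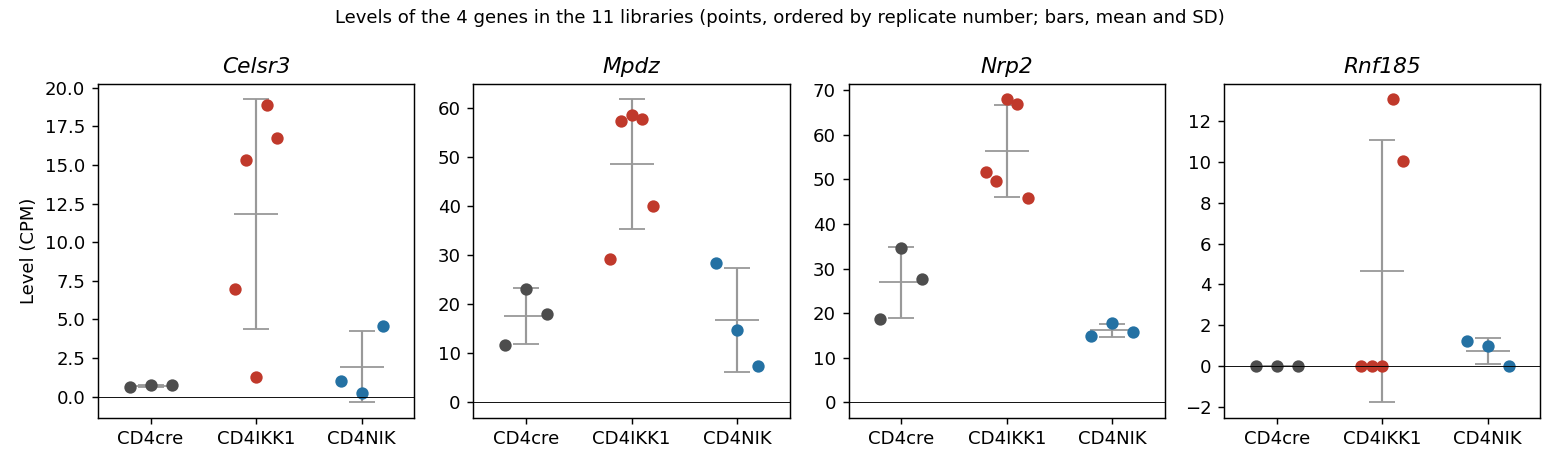
The level of each of the 4 genes in CPM (y axis, a linear scale of its own for each gene) is plotted for the CD4cre, CD4IKK1 and CD4NIK libraries (x axis), with 1 point per library in the order of the replicate numbers and gray bars for the mean and SD. Nrp2 falls into 3 levels by group, Mpdz is highest in the 5 CD4IKK1 libraries, Celsr3 ranges from 1.25 to 18.9 CPM within CD4IKK1, and Rnf185 is above 2 CPM in 2 libraries.

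The isoforms and neighbours of the genes may bear on these counts. In the GENCODE release M39, Celsr3 has 7 transcripts, Mpdz 43, Nrp2 9 and Rnf185 16. Of the 31-base words in the Rnf185 transcripts, 23.3% also occurred, on either strand, in transcripts of other genes, namely the antisense non-coding RNAs 8430429K09Rik and Gm74259. For Celsr3 this share was 4.77%, most of it from the antisense RNA Gm57039, for Nrp2 3.44% and for Mpdz 0.0127%. These antisense RNAs were not, under these names, among the gene symbols with counts. Whether counting used strand is not given in the sources used here, and reads of a gene and its antisense partner cannot then be told apart.

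In the comparison of CD4IKK1 with CD4cre, edgeR's quasi-likelihood fit gave a log2 fold change of 4.05 (SE 0.84) for Celsr3, 1.46 (SE 0.30) for Mpdz and 1.07 (SE 0.24) for Nrp2. Rnf185 did not pass the expression filter in this comparison, and 3 of the 4 members did. A gene was called when its false discovery rate (FDR) was under 0.05 and its difference over 2-fold. By this rule edgeR called 0 of 15653 genes higher (0%) and 0 lower (0%), with 2592 genes (16.6%) at an unadjusted p under 0.05. DESeq2 called 41 (0.354%) higher and 511 (4.41%) lower of the 11585 genes to which it gave an adjusted p. Every CD4IKK1 library was above every CD4cre library for 938 genes (5.99%), and below for 1321 (8.44%). Celsr3, Mpdz and Nrp2 were among the 938, which the rule that chose them made likely. By log2 fold change, in the libraries that chose them, they stood at places 48, 485 and 836 of the 15653 genes tested. Among the 938 they stood at places 7, 59 and 96. The neighbours of Celsr3 in this order were Vmn2r87, at 4.08, and Gm28956, at 4.00.

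The comparison of CD4NIK with CD4cre was not used to choose the members, although its CD4cre libraries were, and being chosen low they favour a rise. Of the 15209 genes tested, 1586 (10.4%) were called higher and 1063 (6.99%) lower, and none of the 3 members tested was called. These 2649 calls fell to between 674 and 1001 without CD4cre replicate 2 or 3 or CD4NIK replicate 2 or 3. The higher genes were 59.9% of the calls, against 49.0% with library size alone and 99.7% with the neuronal scale introduced below. Nrp2 had a log2 fold change of -0.76 (SE 0.31, edgeR FDR 0.113, DESeq2 adjusted p 0.0818). Its groups did not overlap, as for 22.1% of the genes tested in that direction. Mpdz had a log2 fold change of -0.08 (SE 0.50, edgeR FDR 0.921). Celsr3 had one of 1.42 (SE 1.05, edgeR FDR 0.361), which became -0.19 without CD4NIK replicate 3, the library with 65 of its counts. Rnf185 did not pass the filter, and its DESeq2 adjusted p was 0.0509.

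CD4IKK1 was also set beside CD4NIK, without a test of the members, since CD4IKK1 libraries had chosen them. The log2 fold change was 1.81 (SE 0.25) for Nrp2, 1.54 (SE 0.41) for Mpdz, 2.62 (SE 0.96) for Celsr3 and 2.64 (SE 2.36) for Rnf185. Without CD4NIK replicate 3 the value was 4.24 for Celsr3 and 1.18 for Mpdz, and without CD4NIK replicate 1 it was 2.13 for Mpdz. With the summed counts of neuronal marker genes as library size, which was tried once the values were known, the log2 fold change was 0.24 for Nrp2, 0.19 for Mpdz, 0.82 for Celsr3 and 1.41 for Rnf185, while the median of all genes moved from 0.06 to -1.50. With the replicate number as a block Rnf185 turned to -6.66. Nrp2 and Mpdz were higher in every CD4IKK1 library than in any CD4NIK library, as were 20.5% of the 16546 genes tested. Among all genes, 2444 (14.8%) were called higher in CD4IKK1 and 3068 (18.5%) lower. With the neuronal counts as library size these became 40 and 8082.

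Neuronal transcripts were abundant in all 11 libraries. Of 40 markers listed, 39 were analysed, and their summed level ranged from 14690 to 17830 CPM in CD4cre, from 19210 to 22180 CPM in CD4IKK1 and from 5193 to 10460 CPM in CD4NIK. The 3 groups did not overlap in this sum, in the same order as for Nrp2. The most abundant markers were Stmn3, a regulator of microtubules in neurons, with means of 3270, 4176 and 1480 CPM in CD4cre, CD4IKK1 and CD4NIK, then Gap43, a protein of growing axons, and Uchl1, a deubiquitinase of neurons. Defining markers were among them: Rbfox3, the nuclear antigen NeuN of mature neurons, was at 320 ± 39.7 CPM in CD4cre, 365 ± 50.4 CPM in CD4IKK1 and 128 ± 58.4 CPM in CD4NIK.

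Against CD4cre, 24 of 37 neuronal markers tested were called lower in CD4NIK (6.99% of all genes) and 0 higher (10.4% of all genes), with a median log2 fold change of -1.18 beside -0.02 for all genes. This count was 2 without CD4cre replicate 2, 1 without any of CD4cre replicate 3 and CD4NIK replicates 2 and 3, 31 without CD4NIK replicate 1, and 6 with the replicate number as a block. Among the markers, 0 of 38 were called between CD4IKK1 and CD4cre by edgeR and 0 by DESeq2, 18 had an unadjusted p under 0.05 (16.6% of all genes), and the median was 0.32 beside 0.02 for all genes. The CD4IKK1 libraries were above all CD4cre libraries for 14 of them (5.99% among all genes) and below for 1 (8.44% among all genes), Nefh, a neurofilament chain. Markers of peripheral neurons summed to at most 14.9 CPM in any library. Of these, Prph, an intermediate filament of peripheral neurons, was at 5.42 ± 3.94 CPM in CD4cre and 2.68 ± 2.27 CPM in CD4IKK1.

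Other cell types were present to different degrees. Astrocyte markers summed to between 207 and 240 CPM in CD4cre, 252 and 316 CPM in CD4IKK1 and 86.3 and 153 CPM in CD4NIK, without overlap and in the order of the neuronal markers. Oligodendrocyte and Schwann cell markers were more abundant and their groups overlapped, at 680 to 828 CPM in CD4cre, 621 to 892 CPM in CD4IKK1 and 460 to 761 CPM in CD4NIK. Cnp, an enzyme of myelin on that list, ran in the opposite order, at 85.9 ± 31.6 CPM in CD4cre, 31.6 ± 4.55 CPM in CD4IKK1 and 272.5 ± 14.5 CPM in CD4NIK. Kidney tubule markers summed to between 20.2 and 83.8 CPM in CD4cre, 6.53 and 12.9 CPM in CD4IKK1 and 17.5 and 117 CPM in CD4NIK. Every CD4IKK1 library was thus below the others. Fibroblast markers summed to at most 11.7 CPM in any library. Lymphatic endothelial markers, of interest for Nrp2, summed to between 6.42 and 14.0 CPM in CD4cre, 8.62 and 19.8 CPM in CD4IKK1 and 2.90 and 4.80 CPM in CD4NIK. The most abundant of them, Reln, a secreted glycoprotein that neurons also make, was at 4.84 ± 2.80 CPM in CD4cre, 9.08 ± 5.69 CPM in CD4IKK1 and 2.28 ± 1.51 CPM in CD4NIK. Lyve1, a receptor of lymphatic vessels, was at a mean of 0.886, 0.0809 and 0.0186 CPM in these groups, and the last 2 means are under the limit of 3 counts. Myeloid markers summed to between 375 and 1639 CPM in CD4cre, 85.9 and 209 CPM in CD4IKK1 and 572 and 892 CPM in CD4NIK. The part of these cell types in the members' levels was not tested.

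**Figure D2:**
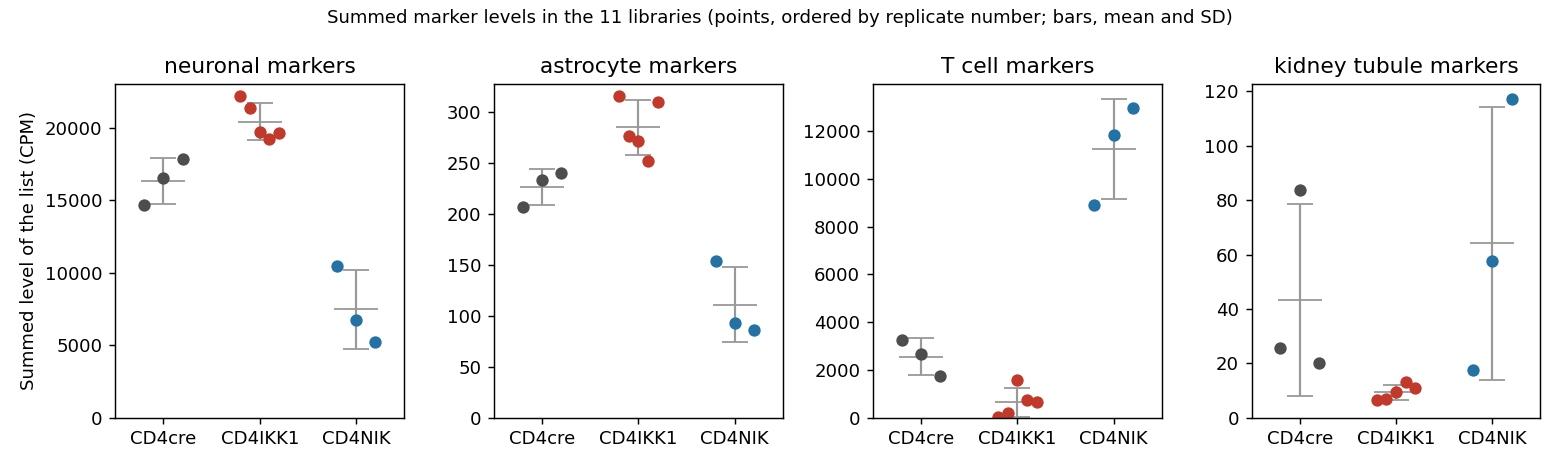
Summed CPM (y axis, linear from 0, its own scale in each panel) of the markers of neurons, astrocytes, T cells and kidney tubules is plotted for the CD4cre, CD4IKK1 and CD4NIK libraries (x axis), with 1 point per library and gray bars for the mean and SD. Neuronal and astrocyte markers are highest in CD4IKK1 and lowest in CD4NIK, and T cell markers run the other way.

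The members differed in how their levels lay beside the neuronal content. Over the 11 libraries, Pearson's r of log2 CPM with the 38 neuronal markers that passed the filter had a median of 0.78 for Nrp2, 0.73 for Mpdz, 0.41 for Celsr3 and 0.03 for Rnf185. The median over all genes was between -0.04 and 0.02 for these members. The libraries form 3 groups of 5 or fewer, so these values describe the groups as much as the libraries, and a relation within groups was not tested. Within CD4IKK1, the library with the highest neuronal sum, replicate 1 at 22180 CPM, had the lowest Mpdz and the second lowest Celsr3. Replicates 3 and 5 had nearly the same neuronal sum, 19690 and 19620 CPM, but 1.25 and 16.7 CPM of Celsr3 and 0 and 224 counts of Rnf185. Replicate 4, with the lowest neuronal sum of the group at 19210 CPM, had the highest Celsr3 and the highest Rnf185. Nrp2 also departed from the order of the neuronal sums. In CD4IKK1 it was at 68.0, 66.9 and 45.8 CPM in replicates 3, 4 and 5. It was at 51.7 and 49.6 CPM in replicates 1 and 2, with sums of 22180 and 21400 CPM. In CD4NIK it was at 14.8, 17.7 and 15.8 CPM beside sums of 10460, 6768 and 5193 CPM. In CD4cre the lowest Nrp2 was in the library with the lowest sum.

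**Figure D3:**
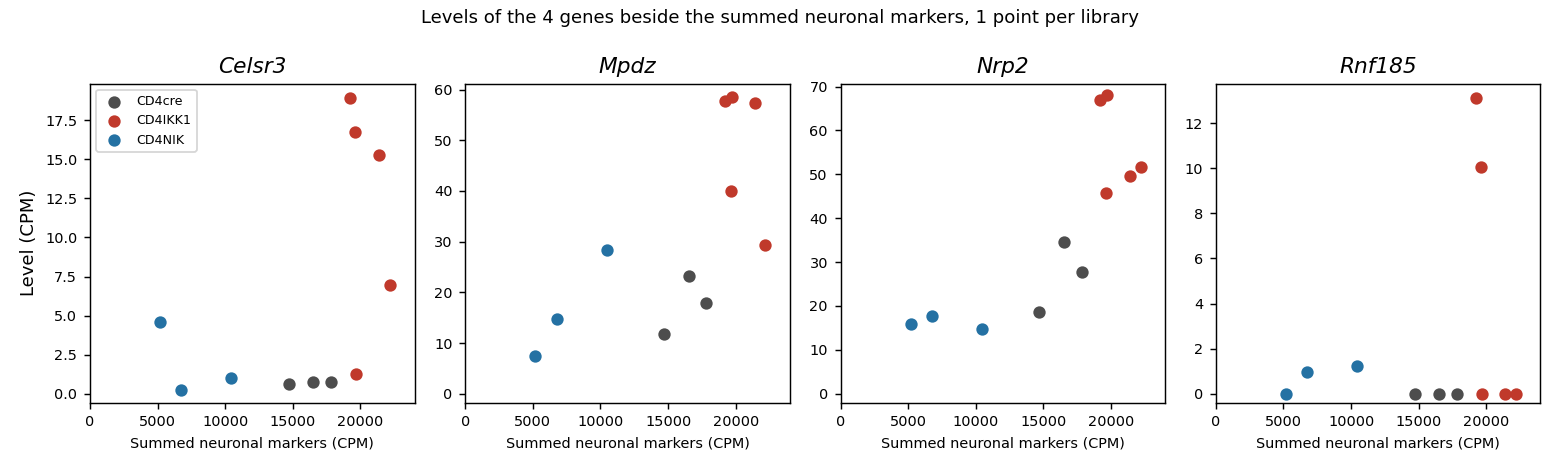
The level of each gene in CPM (y axis) is plotted against the summed CPM of the 39 neuronal markers (x axis), both linear, with 1 point per library in the color of its group. Nrp2 and Mpdz are highest in the CD4IKK1 libraries at the right, whereas Celsr3 and Rnf185 range from the bottom to the top of their panels among CD4IKK1 libraries whose neuronal sums lie between 19210 and 22180 CPM.

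Expressed per 1000 CPM of summed neuronal markers, a scale chosen after the data were seen, Nrp2 was at 1.64 ± 0.415 in CD4cre, 2.78 ± 0.624 in CD4IKK1 and 2.36 ± 0.842 in CD4NIK. Every CD4IKK1 library, at 2.32 or more, was above every CD4cre library, at 2.09 or less, which the choice of the gene made likely. The ratio of the means was 1.70 in place of 2.09. For Mpdz the values were 1.07 ± 0.304, 2.41 ± 0.720 and 2.11 ± 0.648, with a ratio of 2.24 between CD4IKK1 and CD4cre. On this scale its groups overlapped, since CD4IKK1 replicate 1 was at 1.32 and the highest CD4cre library at 1.40. Celsr3 was at 0.0436 ± 0.00129 in CD4cre, 0.586 ± 0.385 in CD4IKK1 and 0.338 ± 0.472 in CD4NIK. The ratio between CD4IKK1 and CD4cre was 13.4. CD4IKK1 replicate 3, at 0.0634, was above CD4cre, which the choice of this gene also made likely.

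In CD4NIK against CD4cre the direction of Nrp2 and Mpdz depended on this scale, which shifted the genes as a whole. With the summed neuronal counts as library size, the median of all genes moved from -0.02 to 1.22 on the log2 scale. Nrp2 then had a log2 fold change of 0.52 in place of -0.76 (edgeR FDR 0.324), and Mpdz 0.98 in place of -0.08 (edgeR FDR 0.0803). Both lay below the median of all genes. Celsr3 had 2.92 in place of 1.42 (edgeR FDR 0.0861), in the same direction. In CD4IKK1 against CD4cre the median of all genes moved from 0.02 to -0.31. The values were then 0.77 for Nrp2, 1.17 for Mpdz and 3.74 for Celsr3. Their direction had been made likely by the choice of these genes, and nothing is concluded from it.

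**Figure D4:**
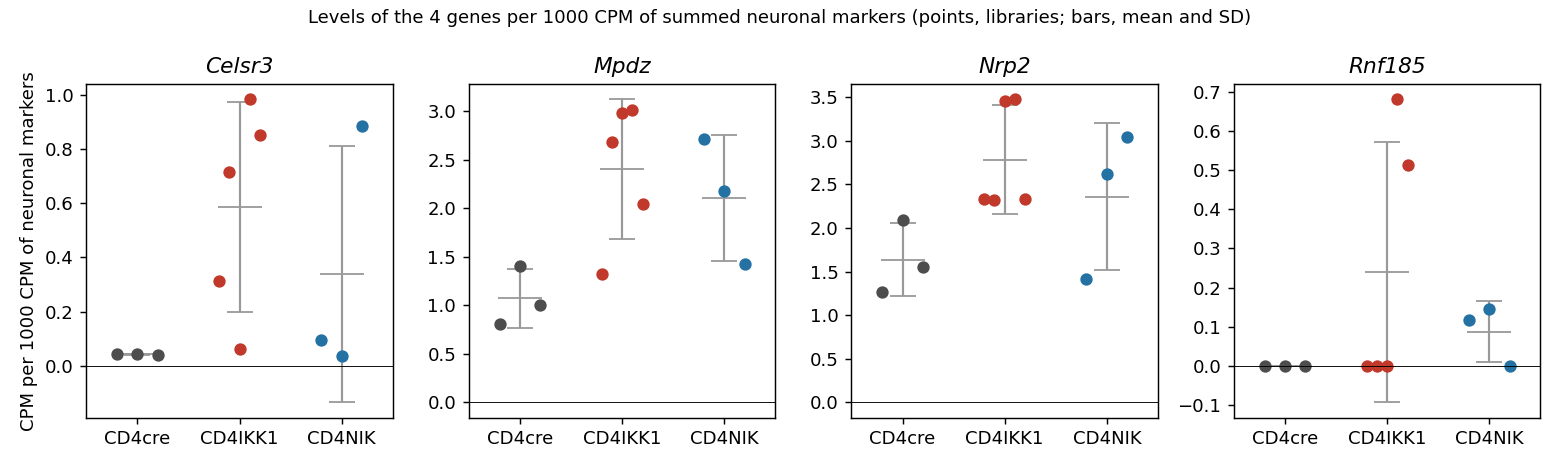
CPM of each gene per 1000 CPM of the summed neuronal markers (y axis, linear, its own scale for each gene) is plotted for the CD4cre, CD4IKK1 and CD4NIK libraries (x axis), with 1 point per library and gray bars for the mean and SD. For Nrp2 and Mpdz the CD4NIK libraries lie among or above the CD4cre libraries, and for Celsr3 CD4NIK replicate 3, at 0.882, lies among the CD4IKK1 libraries.

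The closest relatives of the members showed orders of their own. Celsr1 and Celsr2 belong to the same cadherin family. Celsr2 was at 23.6, 34.6 and 24.7 CPM in CD4cre, from 9.99 to 43.1 CPM in CD4IKK1 and at 4.58, 11.9 and 2.61 CPM in CD4NIK. CD4IKK1 and CD4cre overlapped, with a log2 fold change of -0.12 (SE 0.39, edgeR FDR 0.934). It was called lower in CD4NIK than in CD4cre, with a log2 fold change of -2.14 (SE 0.54, edgeR FDR 0.0290), a call that was lost without CD4cre replicate 2 or 3 or CD4NIK replicate 1 or 3. Celsr1 had at most 43 counts in any library and was at 0 in 1 CD4cre, 2 CD4IKK1 and 2 CD4NIK libraries.

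Nrp1 is the other neuropilin, which T cells also express, and its highest level was in CD4NIK, where Nrp2 was lowest. It was at 2.81, 4.91 and 3.35 CPM in CD4cre, from 0.854 to 11.8 CPM in CD4IKK1, and at 4.24, 14.9 and 12.4 CPM in CD4NIK. The groups overlapped in each comparison, and its log2 fold change in CD4NIK against CD4cre was 1.49 (SE 0.55, edgeR FDR 0.0862). Patj, the other large scaffold of PDZ domains, was at 12.6, 2.28 and 8.96 CPM in CD4cre, from 0.567 to 2.09 CPM in CD4IKK1 and at 7.42, 8.75 and 16.1 CPM in CD4NIK. All CD4IKK1 libraries were below the others, where Mpdz was above them, with a log2 fold change of -2.46 against CD4cre (SE 0.67, edgeR FDR 0.127, called by DESeq2) and of -2.89 against CD4NIK (SE 0.60, edgeR FDR 0.00208), and the latter was a call.

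Rnf5 had large counts in every library, unlike Rnf185. It was at 355, 412 and 454 CPM in CD4cre, from 498 to 546 CPM in CD4IKK1 and at 318, 261 and 241 CPM in CD4NIK. The 3 groups did not overlap, in the order of the neuronal markers. No difference was called, with a log2 fold change of 0.35 in CD4IKK1 (SE 0.09, edgeR FDR 0.123) and of -0.59 in CD4NIK (SE 0.19, edgeR FDR 0.0595) against CD4cre and of 0.93 between CD4IKK1 and CD4NIK, which was under the 2-fold threshold.

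**Figure D5:**
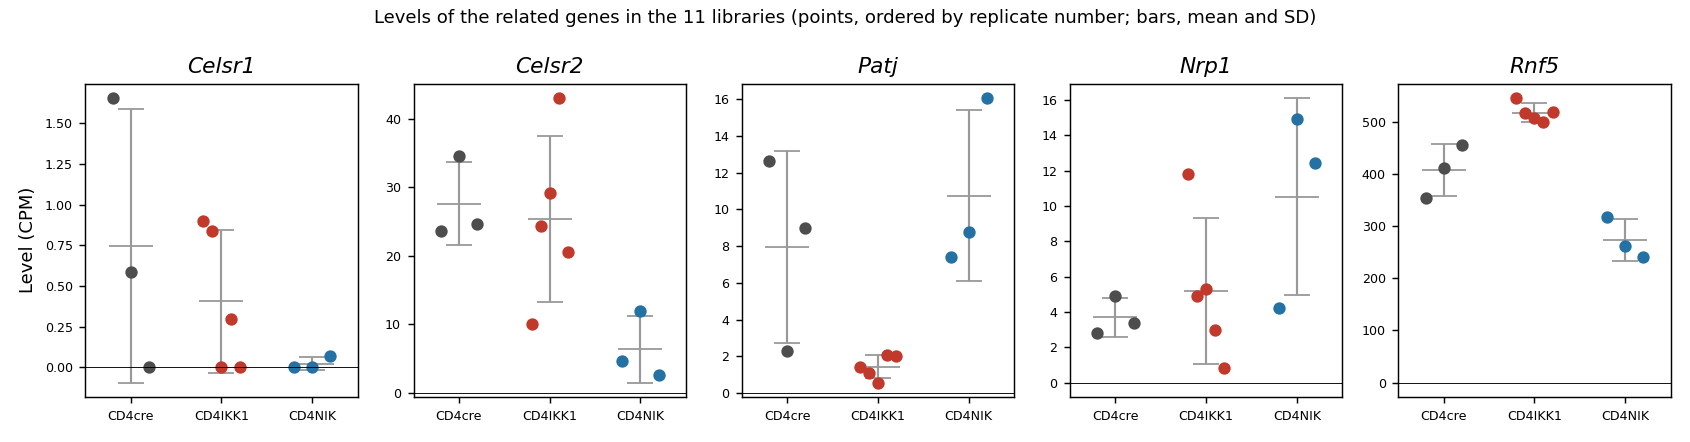
The level in CPM (y axis, linear, its own scale for each gene) of Celsr1, Celsr2, Patj, Nrp1 and Rnf5 is plotted for the CD4cre, CD4IKK1 and CD4NIK libraries (x axis), with 1 point per library and gray bars for the mean and SD. Patj is lowest in the 5 CD4IKK1 libraries, and Rnf5 falls into 3 levels by group.

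The pathways of the members were examined by lists. Of 21 planar cell polarity genes, which organise cell direction together with Celsr3, 14 were tested in CD4NIK against CD4cre. Called were 0 higher (10.4% of all genes) and 3 lower (6.99% of all genes), namely Celsr2, Prickle2, a cytoplasmic core protein, at -1.51 (SE 0.45, edgeR FDR 0.0472) and Fjx1, a secreted kinase-like protein of the Fat pathway, at -1.58 (SE 0.32, edgeR FDR 0.0162). The median of the list was -0.99, beside -1.18 for the neuronal markers, whose part was not tested. The count of 3 became 1, 0, 1 and 0 without CD4cre replicates 2 and 3 and CD4NIK replicates 2 and 3. Between CD4IKK1 and CD4cre edgeR called 0 of 16, with 4 at an unadjusted p under 0.05 (16.6% of all genes), and DESeq2 called 2 lower (4.41% of all genes), Dvl2 and Scrib. The CD4IKK1 libraries were above CD4cre for 3 of the 16 (5.99% of all genes), namely Fzd3, a Wnt receptor that acts with Celsr3 in axon tracts, Ankrd6 and Fat4, and below for 2 (8.44% of all genes), Dvl2 and Scrib. Fzd3 was at 67.8 ± 6.88 CPM in CD4cre, 99.2 ± 16.2 CPM in CD4IKK1 and 34.4 ± 12.4 CPM in CD4NIK. Between CD4IKK1 and CD4NIK, edgeR called 6 of 16 higher (14.8% of all genes) and 0 lower (18.5% of all genes), and DESeq2 called 6 higher (14.6% of all genes) and 2 lower (20.2% of all genes). The neuronal markers were higher there too, with 29 of 38 called by edgeR, and their part was not tested.

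Among 37 genes of semaphorins, neuropilins, plexins and their growth factors, 25 were tested in CD4NIK against CD4cre, with 1 called higher (10.4% of all genes) and 3 lower (6.99% of all genes) and a median log2 fold change of -0.86. The neuronal markers, at a median of -1.18, were lower and the T cell markers higher in the same libraries, and their part was not tested. The gene called higher was Sema4a, a semaphorin of immune cells, from 40.0 ± 14.4 CPM to 157 ± 63.8 CPM (log2 fold change 1.95, SE 0.37, edgeR FDR 0.0145). The genes called lower were Plxna4, a plexin that pairs with neuropilins (-1.16, SE 0.30, edgeR FDR 0.0303), Sema4g (-1.27, SE 0.35, edgeR FDR 0.0368) and the growth factor Vegfb (-1.14, SE 0.31, edgeR FDR 0.0353). None of the 3 lower calls was made without CD4cre replicate 2 or 3 or CD4NIK replicate 2 or 3, 6 were made without CD4NIK replicate 1, and Sema4a was called in 1 of these fits. Between CD4IKK1 and CD4cre edgeR called 0 of 30 and DESeq2 called 0, 5 had an unadjusted p under 0.05 (16.6% of all genes) and the median was 0.43. For 2 of the 30, Sema4g and Sema5a, every CD4IKK1 library was above CD4cre, a share close to the 5.99% of all genes. Between CD4IKK1 and CD4NIK 8 of 30 were called higher (14.8% of all genes), among them the plexins Plxna2, Plxna3 and Plxna4, and 1 lower (18.5% of all genes), Sema4a. In that comparison 29 of 38 neuronal markers were called higher and 17 of 19 T cell markers lower, and their part was not tested.

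Other axon guidance genes were called lower in CD4NIK as well. In CD4NIK against CD4cre 6 of 29 were called lower (6.99% of all genes) and 0 higher (10.4% of all genes), namely the Slit receptors Robo1 and Robo2, their ligand Slit2, the netrin receptor Unc5a, the ephrin receptor Epha5 and the ephrin Efnb3, with log2 fold changes from -1.67 for Robo1 to -1.04 for Epha5. The median of the list was -1.04, beside -1.18 for the neuronal markers, whose part was not tested. The count of 6 was 0 or 1 without CD4cre replicate 2 or 3 or CD4NIK replicate 2 or 3, and 13 without CD4NIK replicate 1. Between CD4IKK1 and CD4cre edgeR called 0 of 33, with 6 at an unadjusted p under 0.05 (16.6% of all genes), and DESeq2 called 1 higher (0.354% of all genes), Epha4. Every CD4IKK1 library was above CD4cre for 5 of the 33 (5.99% of all genes), Slit2, Unc5d, Epha4, Epha5 and Ephb6, and below for 0 (8.44% of all genes). The median was 0.32, as for the neuronal markers, of which 14 of 38 had every CD4IKK1 library above CD4cre. Slit2 had 29.3 ± 6.38 CPM in CD4cre, 45.6 ± 4.19 CPM in CD4IKK1 and 14.0 ± 1.97 CPM in CD4NIK. Between CD4IKK1 and CD4NIK 15 of 34 were called higher (14.8% of all genes) and 1 lower (18.5% of all genes), the chemokine receptor Cxcr4, which T cells carry. The call of Cxcr4 was lost without any 1 of the 3 CD4cre libraries, the 3 CD4NIK libraries or CD4IKK1 replicates 3 and 4. The median of the list was 1.34, beside 1.51 for the neuronal markers, of which 29 of 38 were called higher, and their part was not tested. With neuronal counts as library size 0 of the 34 and 40 of all genes were called higher.

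The junction and polarity scaffolds are the group of Mpdz. In CD4NIK against CD4cre 2 of 31 were called lower, a share close to the 6.99% of all genes, the adhesion molecule Jam2 (-1.97, SE 0.42, edgeR FDR 0.0193) and the scaffold Magi1 (-2.63, SE 0.47, edgeR FDR 0.0115), and 0 higher (10.4% of all genes). The count of 2 ran from 0 without CD4NIK replicate 3 to 4 without CD4NIK replicate 1, and CD4NIK replicate 3 was the only library without which Magi1 was not called. Between CD4IKK1 and CD4cre edgeR called 0 of 31, with 4 at an unadjusted p under 0.05 (16.6% of all genes), and DESeq2 called 2 lower (4.41% of all genes), Patj and Scrib. No listed gene had every CD4IKK1 library above CD4cre (5.99% of all genes) and 5 had every library below (8.44% of all genes), Patj, Tjp3, Jam2, Scrib and Magi3. Mpdz was not on this list. Between CD4IKK1 and CD4NIK 11 of 31 were called higher (14.8% of all genes), Tjp1 and Pals1 among them, and 2 lower (18.5% of all genes), Patj and Tjp3. The count of 11 became 5 without CD4IKK1 replicate 1 or CD4NIK replicate 2 and 3 without CD4NIK replicate 3. Of the neuronal markers, 29 of 38 were called higher in this comparison, with a median of 1.51, and their part was not tested.

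ER-associated degradation genes are the group of Rnf185. In CD4NIK against CD4cre 5 of 34 were called higher (10.4% of all genes) and 1 lower (6.99% of all genes). T cell markers were higher in the same libraries, with 15 of 19 called, and their part was not tested. The chaperone Hspa5 rose from 354 ± 109 CPM to 1089 ± 206 CPM (log2 fold change 1.61, SE 0.26, edgeR FDR 0.00824). Edem1 rose by 1.89 (SE 0.28, edgeR FDR 0.00682), and Edem2, the lectin Os9 and the ligase Rnf139 were also called higher, while Nploc4, a cofactor of protein extraction, fell by 3.03 (SE 0.60, edgeR FDR 0.0161). With 1 library left out the higher calls ran from 3, without CD4cre replicate 2 or 3 or CD4NIK replicate 3, to 9, without CD4cre replicate 1. Edem1, Hspa5 and Os9 were called in each of these fits, and Nploc4 was not called without CD4cre replicate 2 or 3 or CD4NIK replicate 3. Between CD4IKK1 and CD4cre edgeR called 0 of 32, with 6 at an unadjusted p under 0.05 (16.6% of all genes), and DESeq2 called 1 lower (4.41% of all genes), Edem1. Every CD4IKK1 library was above CD4cre for 1 of the 32 (5.99% of all genes), Rnf5, and below for 4 (8.44% of all genes), Derl2, Nploc4, Edem1 and Herpud1. Of the T cell markers 0 of 19 were called by edgeR and 0 by DESeq2 in that comparison, 2 had an unadjusted p under 0.05, and 7 had every CD4IKK1 library below CD4cre. Between CD4IKK1 and CD4NIK 0 of 34 were called higher (14.8% of all genes) and 10 lower (18.5% of all genes). T cell markers were lower in the same comparison, with 17 of 19 called and a median of -4.07, and their part was not tested.

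The genes most like each member were found by Pearson's r of log2 CPM over the 11 libraries, which share their groups and depth. Nrp2 had the closest companions, Mgat4c (r 0.963), BC003965 (0.958), Ttbk1, a kinase of neurons (0.953), Bmp3 (0.947) and Meaf6 (0.944). Those of Mpdz included Dusp22 (r 0.922), Zfp641 (0.919), Olfr867 (0.917) and Top1mt (0.913). Those of Celsr3 were Gdap1l1 (r 0.927), Sh3bgr (0.880), Tmem126b (0.879), Rfx2 (0.870) and Aldh1a1 (0.854). Those of Rnf185 were Irs4 (r 0.879), Cd63-ps (0.878), Vash2 (0.867), Rgsl1 (0.824) and Hsd17b7 (0.813), none of which exceeded 5.17 CPM in any library. Among the members, r was 0.84 between Mpdz and Nrp2, 0.60 between Celsr3 and Nrp2, 0.52 between Celsr3 and Mpdz, and from 0.15 to 0.39 between Rnf185 and the others.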

How the data were processed

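RNA from kidney CD4+ T cells of 11 mice had been sequenced, with 1 library per mouse, and the labelled genotype set the groups. After trimming in Trimmomatic and assignment to transcripts by kallisto, the authors deposited estimated counts per gene symbol, neither normalized nor filtered, for which the labels name the build mm10 and the study's methods GRCm39. The kallisto version is not given in the sources used here. The counts were rounded to whole numbers and tested with edgeR 4.0.16 in R 4.3.3, with edgeR's expression filter, TMM factors, the robust quasi-likelihood F test and Benjamini-Hochberg adjustment. Comparisons with CD4cre used their own groups, and that of CD4IKK1 with CD4NIK all 11 libraries. DESeq2 1.42.0, other factors and filters, a replicate block and leaving out each library were alternatives. CPM were scaled to the library totals with TMM factors, and log2 CPM used a prior count of 2. The members and gene lists were chosen with earlier results of these data known. The genes named are the members, their closest relatives, the 5 genes most like each member, called list genes and abundant markers. A gene that this rule names is not reported here. Genes outside this rule, such as those named for libraries that do not overlap, were chosen after their values were seen. Precision rests on 15751632 to 25737046 counts per library, and limits of 3 counts cover counting error only. Of 200 genes changed by 2 on the log2 scale in simulated data, edgeR recovered 33.5% for CD4IKK1 against CD4cre and 48.0% for CD4NIK against CD4cre. It made 5 and 4 false calls there. DESeq2 recovered 50% and 62% in these comparisons, with 67 and 56 false calls.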

Additional observations from a re-analysis of the deposited data

Results flagged for a closer look

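Nrp2 lay on opposite sides of CD4cre in the libraries labelled CD4IKK1 and CD4NIK. Every CD4IKK1 library was above and every CD4NIK library below all CD4cre libraries, with log2 fold changes of 1.07 and -0.76. The second did not pass the threshold (edgeR FDR 0.113) and became 0.52 with summed neuronal counts as library size, where the median of all genes moved from -0.02 to 1.22. The difference between the groups was not tested, since the CD4IKK1 libraries had been used to choose the gene.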

How the results depend on the processing

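In CD4IKK1 against CD4cre, the log2 fold changes ran from 2.92 to 4.34 for Celsr3, 1.24 to 1.71 for Mpdz and 0.86 to 1.29 for Nrp2 over 15 alternatives, with a direction that the choice of these genes had fixed. In CD4IKK1 against CD4NIK they ran from 1.18 to 4.24 for Celsr3, Mpdz and Nrp2, and Rnf185 became -6.66 with the replicate block, where CD4IKK1 replicates 4 and 5 have no partner by construction. In CD4NIK against CD4cre no alternative called Celsr3, Mpdz or Nrp2, and Rnf185 had a value from DESeq2 alone, given with the results. Nrp2 stayed between -0.97 and -0.52 (lowest edgeR FDR 0.0631), while Celsr3 ran from -0.19 to 1.98 and Mpdz from -0.67 to 0.28 as libraries were left out, and Mpdz was reversed without CD4cre replicate 2 (0.18), CD4NIK replicate 2 (0.02) and CD4NIK replicate 3 (0.28). A further alternative, added after seeing the data, took summed neuronal counts as library size. The members of CD4NIK against CD4cre then became 2.92 for Celsr3, 0.98 for Mpdz and 0.52 for Nrp2. The median of all genes moved there from -0.02 to 1.22. CD4IKK1 against CD4NIK became 0.82 for Celsr3, 0.19 for Mpdz and 0.24 for Nrp2, while its median of all genes moved from 0.06 to -1.50. The causes were not tested. The number of genes called in CD4IKK1 against CD4cre, 0, became 552 with DESeq2, 1 with RLE factors, 48 when 1 count in any library sufficed, 159 when 10 counts were required everywhere, 3 with the replicate block and 157 with neuronal scaling, and lay between 0 and 23 with a library left out. In CD4NIK against CD4cre the 2649 genes called, 59.9% of them higher, became 3873 with DESeq2 (57.1%), 2820 with library size alone (49.0%), 1185 with the replicate block (84.0%) and 5945 with neuronal scaling (99.7%), and lay between 674 and 3468 with a library left out. In CD4IKK1 against CD4NIK the 5512 genes called, 44.3% higher, became 8122 with neuronal scaling (0.492%). The replicate numbers did not pair the libraries: deviations correlated between -0.0889 and 0.0766 for 9 pairs with the same number and between -0.066 and 0.0905 for 30 other pairs. At 3 counts a level under 0.115 to 0.212 CPM was not measurable.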
